A study of Mus musculus with 12 samples.

Results

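The miR-23/27/24 clusters are 2 short stretches of the mouse genome that each carry a mir-23, a mir-27 and a mir-24 hairpin. Their products were chosen by name as 9 rows of the small RNA count table, which holds 1978 mature miRNA entries, and all 9 were present. They are mmu-mir-23a-3p, mmu-mir-23b-3p, mmu-mir-27a-3p, mmu-mir-27a-5p, mmu-mir-27b-3p, mmu-mir-27b-5p, mmu-mir-24-3p, mmu-mir-24-1-5p and mmu-mir-24-2-5p. Small RNA had been sequenced from the colon and the whole blood of 6 male wild-type C57BL/6 mice, 8 weeks old when obtained, which gave 12 libraries. In the DSS group, 3 mice drank water with 1.5% (wt/vol) dextran sulfate sodium, a polysaccharide that injures the colon epithelium, for 7 days, and the 3 control mice were kept on plain water over the same period. All were sacrificed on day 8, and the study had picked these mice by their disease activity score. DSS colitis is a chemical, acute model of ulcerative colitis, and each library is bulk RNA of 1 mouse.

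The labels of these libraries contradict each other. After the study's own figures, the grouping used here takes DSS to have been given to mice 1, 7 and 9 and plain water to mice 2, 4 and 8. The disease state labels put mice 1, 2 and 4 under colitis and the other 3 under control, and values for that grouping stand beside the main DSS comparisons. Cell type markers were not compared under it. The source field and the tissue field name opposite tissues for every library, and the tissue field was used. Marker miRNAs lay with the tissue field. The miR-486a and miR-486b entries, which are typical of red blood cells, held 74.7% to 83.0% of the counts in blood and 0.251% to 0.442% in colon. The 8 epithelial marker miRNAs together reached 35150 to 137700 CPM (counts scaled to a common library size) in colon and 1133 to 1704 CPM in blood.

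A microRNA is a short RNA that pairs with messenger RNAs mainly through its seed, bases 2 to 8, and lowers their translation or stability. Each hairpin can give a 5p and a 3p strand, and as a rule one strand is kept and the other is degraded. The cluster of mir-23a, mir-27a and mir-24-2 is known for its activity in myeloid cells and other blood lineages, and the cluster of mir-23b, mir-27b and mir-24-1 for its expression in epithelium, vessels and muscle. In the GRCm38 annotation (GENCODE), the first cluster spans 404 bp at chr8:84208518-84208921 on the plus strand. Mir23a and Mir27a overlap no other annotated gene there, and Mir24-2 lies in an exon of the lincRNA Gm26532. The nearest protein-coding gene, Zswim4, is on the other strand at a distance of 1757 to 2086 bp. The second cluster spans 792 bp at chr13:63300484-63301275 on the plus strand, inside the protein-coding gene 2010111I01Rik and opposite an intron of Fancc. Mir23b lies in an intron of 2010111I01Rik, and Mir27b and Mir24-1 overlap annotated exons of it.

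The mature sequences show which products can be told apart, and their seeds are given in capitals. They are written 5′ to 3′ as in the deposited table.
mmu-mir-23a-3p: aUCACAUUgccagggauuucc
mmu-mir-23b-3p: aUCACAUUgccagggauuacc
mmu-mir-27a-3p: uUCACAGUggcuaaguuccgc
mmu-mir-27b-3p: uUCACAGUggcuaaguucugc
mmu-mir-24-3p: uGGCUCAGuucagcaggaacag
mmu-mir-27a-5p: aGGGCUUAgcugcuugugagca
mmu-mir-27b-5p: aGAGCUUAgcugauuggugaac
mmu-mir-24-1-5p: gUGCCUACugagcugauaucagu
mmu-mir-24-2-5p: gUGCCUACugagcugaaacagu
RefSeq's miRNA table of this mouse assembly held 8 of the 9 members, and its 9 matching rows were identical to the deposited sequences. The 3p strands of miR-23a and miR-23b share the seed UCACAUU and differ by the single substitution U19A, the miR-23a base given first and positions counted from the 5′ end. Those of miR-27a and miR-27b share UCACAGU and differ by C19U, the miR-27a base first. Both 5p strands of miR-24 share UGCCUAC, and their first 16 bases are identical. A sequence was given for 1405 of the 1978 entries, and among these no other entry has the seed of a member. miR-27a-5p and miR-27b-5p differ at 8 positions and from base 3 on. miR-24-3p is the same molecule from both clusters, so its counts have no cluster of origin. A read that ends before base 19 cannot separate a from b in the miR-23 or miR-27 3p strands, and the counts do not show how many reads such pairs shared.

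Library totals were 15060553 to 20106226 counts in colon and 21127134 to 32944792 in blood. The 9 members together held 1.74% to 2.83% of the counts of a colon library and 0.0553% to 0.164% of a blood library. Single member counts ran from 486 to 218025 in colon and from 20 to 20440 in blood, so counting error is small except for the weakest 5p strands in blood. Among the blood libraries, that of DSS mouse 1 had the highest member share (0.164%), and the other 5 lay between 0.0553% and 0.0823%.

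The strongest pattern was between tissues. Each of the 9 members was lower in blood than in colon, without overlap between the 6 libraries of each tissue. miR-27b-3p, the most abundant member in colon, was at 6827, 5269 and 6382 CPM in the colon of DSS mice 1, 7 and 9 and at 8383, 7373 and 9502 CPM in control mice 2, 4 and 8 (CPM with TMM scaling over the 12 libraries). In blood it was at 473, 196 and 185 CPM in the same DSS mice and at 224, 206 and 214 CPM in the controls. The highest blood library was far below the lowest colon library. The fitted difference of blood from colon was -4.86 (log2, SE 0.27), or 29.1-fold lower in blood (adjusted p = 1.03e-10 in the quasi-likelihood test of edgeR, with p-values of 680 miRNAs adjusted after Benjamini and Hochberg). In bulk RNA, fewer cells of a type and less RNA per cell cannot be told apart, and blood and colon RNA were also isolated with different kits, so kit and tissue cannot be told apart either.

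The 3p strands of the 2 clusters differed in how far apart the tissues were. miR-23b-3p was 19.3-fold lower in blood (log2 difference -4.27, SE 0.24), with 330 to 610 CPM in colon and 14.1 to 40.8 in blood. miR-23a-3p, its near-twin from the other cluster, was 8.96-fold lower (-3.16, SE 0.24), with 370 to 595 CPM in colon and 27.1 to 91.8 in blood. miR-27a-3p was 17.7-fold lower (-4.15, SE 0.28), from 2686 to 5160 CPM in colon and 120 to 550 in blood. miR-24-3p, which both clusters make, was 8.89-fold lower (-3.15, SE 0.23), at 3550 to 4387 CPM in colon and 288 to 856 in blood. Among the 3p strands, miR-27b-3p had the largest tissue difference. The smallest were those of miR-24-3p and miR-23a-3p, which lay within their SE of each other.

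The weaker 5p strands followed. miR-27a-5p was 27.05-fold lower in blood (log2 difference -4.76, SE 0.33), at 70.5 to 206 CPM in colon against 1.87 to 7.91 in blood. miR-27b-5p was 26.2-fold lower (-4.71, SE 0.29), at 40.4 to 56.1 against 1.20 to 3.77 CPM. miR-24-2-5p was 10.5-fold lower (-3.40, SE 0.22), at 254 to 306 against 17.6 to 39.4 CPM. miR-24-1-5p had the smallest difference of all 9 members, 6.97-fold (-2.80, SE 0.22), at 26.2 to 42.8 against 3.87 to 6.11 CPM. All 9 members passed both thresholds, 0.05 for the adjusted p and 1.5 for the fold change (largest member adjusted p = 6.44e-09 in edgeR's test). Over all 680 miRNAs tested, 51% passed as lower in blood, and the median log2 difference was -0.86 against -4.15 for the members. The choice of scaling moved the median of all miRNAs by up to 1.18, and the median of the members relative to it was -3.29 to -3.31 under each of the 4 scalings (TMM, RLE, upper-quartile, total counts). All 9 members remained lower in blood in control mice alone (median -4.79) and in DSS mice alone (median -3.39).

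**Figure D1:**
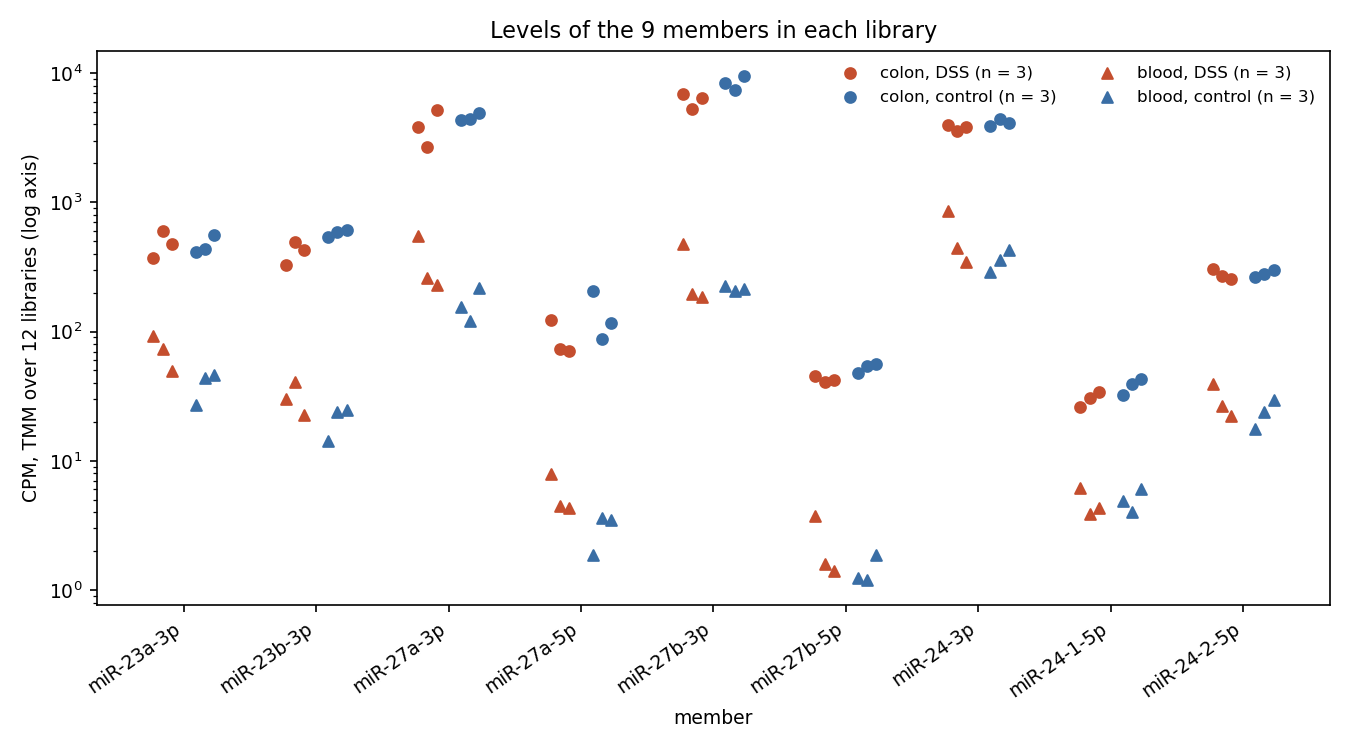
CPM of each member (TMM scaling over 12 libraries, log axis) in each library. Circles are colon and triangles are blood, red are DSS and blue are control mice (3 each). For every member, the blood triangles lie below the colon circles, from 6.97-fold for miR-24-1-5p to 29.1-fold for miR-27b-3p in the fitted difference.

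The order of the members also changed between tissues. In colon, miR-27b-3p made up 38.4% to 47.0% of the counts of the 9 members, ahead of miR-27a-3p (20.7% to 31.0%) and miR-24-3p (20.2% to 27.3%). In blood, miR-24-3p led with 39.3% to 45.8%, and miR-27b-3p fell back to 18.7% to 30.6% and miR-27a-3p held 15.2% to 26.7%. The shares of miR-24-3p in blood and colon did not overlap, nor did those of miR-27b-3p. These shares were read as a description and were not tested. Neighbours in the order were not always apart. In colon, miR-27a-3p exceeded miR-24-3p in 4 of 6 libraries, and miR-23b-3p exceeded miR-23a-3p in 3 of 6. In blood, miR-27b-3p exceeded miR-27a-3p in 2 of 6 libraries, miR-24-2-5p exceeded miR-23b-3p in 4 of 6, and miR-24-1-5p exceeded miR-27a-5p in 3 of 6.

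**Figure D2:**
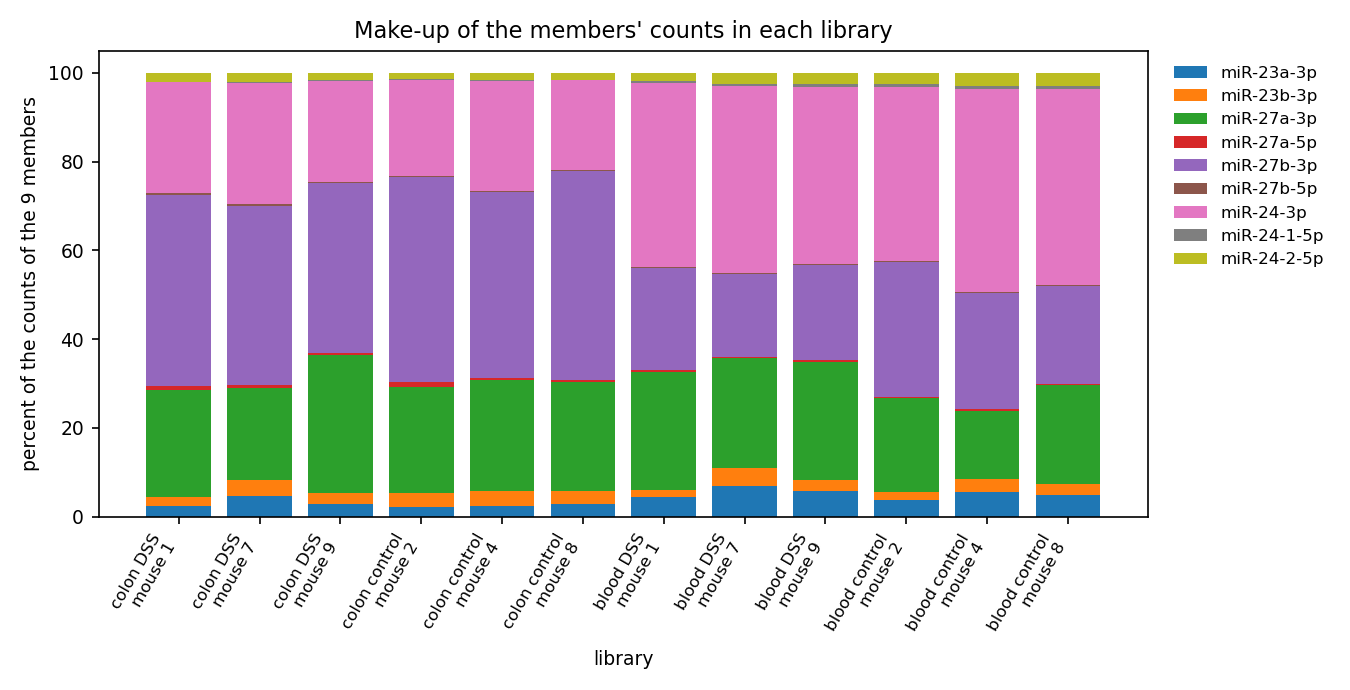
Percent of the counts of the 9 members that each member held, 1 stacked bar per library (mice by number, 3 DSS and 3 control mice per tissue). miR-27b-3p takes 38.4% to 47.0% of the colon bars, and miR-24-3p takes 39.3% to 45.8% of the blood bars.

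In colon, no member was significantly differentially expressed between DSS and control mice. For the products of the chromosome 13 cluster, the fitted values were below 0. miR-23b-3p was at 438, 630 and 568 CPM in DSS mice 1, 7 and 9 and at 676, 757 and 789 CPM in control mice 2, 4 and 8 (TMM scaling within colon). The groups did not overlap, and DSS mice were lower. Its log2 fold change was -0.44 (SE 0.16, adjusted p = 0.118 in edgeR's test over 542 miRNAs). miR-27b-3p was at 9070, 6773 and 8438 CPM in DSS mice and at 10530, 9400 and 12290 CPM in controls, again without overlap (-0.41, SE 0.17, adjusted p = 0.158). With libraries scaled by total counts alone, both groups overlapped for both miRNAs. miR-27b-5p ranged from 51.9 to 60.6 CPM in DSS mice and from 60.3 to 72.5 CPM in controls (-0.26, SE 0.15), and miR-24-1-5p from 34.8 to 45.0 and from 40.3 to 55.3 CPM (-0.29, SE 0.18). In both, 1 DSS library lay within the range of the controls.

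The chromosome 8 products lay closer to 0 or spread more widely. miR-23a-3p was at 491, 765 and 624 CPM in DSS mice and at 515, 555 and 720 CPM in controls, so the groups overlapped throughout (log2 fold change 0.071, SE 0.20). Its sign turned with upper-quartile factors, with limma on the deposited signal and without mouse 2 or mouse 7. miR-27a-3p was at 5064, 3453 and 6822 CPM in DSS mice and at 5489, 5640 and 6403 CPM in controls (-0.19, SE 0.24), and was above 0 with total counts alone and without mouse 7. DSS mice thus held both the lowest and the highest miR-27a-3p library. miR-27a-5p was at 163, 94.7 and 93.2 CPM in DSS mice and at 259, 112 and 152 CPM in controls (-0.58, SE 0.36), and its value was -0.20 without mouse 2 and -0.91 without mouse 1. miR-24-2-5p, the more abundant 5p strand of miR-24, ranged from 336 to 406 CPM in DSS mice and from 332 to 389 CPM in controls, with a log2 fold change of 0.016 (SE 0.13) that was below 0 with RLE or upper-quartile factors. For miR-24-3p the value was -0.090 (SE 0.12), with 4563 to 5249 CPM in DSS mice and 4909 to 5593 CPM in controls, and it was above 0 with total counts alone.

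Thus 0 of 9 members were called in colon by edgeR, against 10.1% of all 542 miRNAs tested, and 0 by DESeq2's Wald test, against 77 of all 542. In edgeR, 2 members (miR-23b-3p and miR-27b-3p) had an unadjusted p under 0.05, as had 170 of all 542 miRNAs. Groups did not overlap for 2 members, with DSS mice lower, where 16.1% of all miRNAs were lower without overlap. For 0 members were DSS mice higher without overlap, where 22.5% of all miRNAs were. These counts depend on the scaling. With total counts alone, 0 members were lower and 1 was higher without overlap (miR-24-2-5p), and with the deposited normalized signal 3 were lower (miR-27b-5p in addition) and 0 higher. The shares over all miRNAs were computed with TMM scaling and the main grouping only, so these counts cannot be set against a share. The median log2 fold change of the 9 members was -0.26, and that of all miRNAs was 0.043. Relative to the median of all miRNAs it was -0.298 to -0.311 under each of the 4 scalings, though the number of members below 0 was 7 with TMM, 8 with RLE, 9 with upper-quartile factors and 5 with total counts alone. With the grouping of the disease state labels, 0 members and 0 of all miRNAs were called in colon, and the values of miR-23b-3p and miR-27b-3p were -0.087 and 0.077. The groups of these 2 then overlapped, and 1 other member, miR-23a-3p, was lower without overlap in the mice labelled colitis. No share over all miRNAs was computed for that grouping. The median of the members was 0.029 under the labels, against -0.022 for all miRNAs. A p that misses the threshold does not show that the level was unchanged.

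Some marker miRNAs of several cell types were called between the colon groups, in a fit that called 0 miRNAs without mouse 2, 4, 7 or 8. The 8 epithelial marker miRNAs summed to 46480 to 111200 CPM in DSS mice and 138900 to 175500 CPM in controls, and 4 of 8 were called lower. Only miR-375-3p of these 8 was above 0 (log2 fold change 0.058). Of the 4 myeloid markers 2 were called higher (sums 368 to 1123 CPM in DSS mice and 254 to 379 CPM in controls). Of the 3 lymphocyte markers, 1, miR-155-5p, was called higher (51.5 to 182 against 63.1 to 96.7 CPM), and of the 3 fibroblast markers, 1 (5006 to 5705 against 3492 to 3694 CPM). The myeloid sums and the lymphocyte sums overlapped between the groups. Of the 2 endothelial markers none was called, although their sums did not overlap (6861 to 7340 against 5144 to 5558 CPM). No smooth muscle marker of 5 (260500 to 353600 against 284200 to 362700 CPM) and no tested erythroid marker of 4 (3232 to 4730 against 3127 to 4288 CPM) was called. No marker was at 0 over the colon libraries. The part of these cell types in the members' values was not tested.

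In blood, no member was significantly differentially expressed either, and the fitted values of 8 of 9 members were above 0, as were those of 218 of all 484 miRNAs. Without mouse 1, 4 of 9 members were below 0. miR-27a-3p was at 331, 169 and 202 CPM in DSS mice 1, 7 and 9 and at 141, 115 and 154 CPM in control mice 2, 4 and 8 (TMM scaling within blood). The DSS mice were higher without overlap, and mouse 1 was the highest. The log2 fold change was 0.78 (SE 0.29, adjusted p = 0.36 in edgeR's test over 484 miRNAs), and 0.50 without mouse 1. miR-23a-3p, from the same cluster, was at 55.2, 47.5 and 43.4 CPM in DSS mice and at 24.8, 41.9 and 32.8 CPM in controls (0.55, SE 0.26, adjusted p = 0.42). Its groups did not overlap either, and they stayed apart with total counts alone, whereas those of miR-27a-3p overlapped. miR-27a-5p was at 4.76, 2.90 and 3.79 CPM in DSS mice and at 1.71, 3.45 and 2.48 CPM in controls (0.59, SE 0.32), which overlapped.

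Of the remaining members, 3 had blood values that rested on mouse 1. miR-24-3p was at 515, 288 and 304 CPM in DSS mice and at 263, 346 and 303 CPM in controls (log2 fold change 0.28, SE 0.27). Without mouse 1 its value was 0.014. miR-27b-3p was at 285, 127 and 163 CPM in DSS mice and at 205, 197 and 152 CPM in controls (0.055, SE 0.32), and without mouse 1 it was -0.29. miR-27b-5p was at 2.27, 1.03 and 1.25 CPM in DSS mice and at 1.12, 1.15 and 1.32 CPM in controls (0.35, SE 0.35), and without mouse 1 it was -0.035. In each of them, the DSS library of mouse 1 was the highest of the 6. miR-23b-3p ranged from 18.1 to 26.5 CPM in DSS mice and from 12.9 to 22.7 CPM in controls (0.28, SE 0.28), with values of 0.15 to 0.57 when 1 mouse was left out, and miR-24-2-5p from 17.2 to 23.7 and from 16.1 to 23.02 CPM (0.013, SE 0.24). The only member with a value below 0 was miR-24-1-5p, at 2.52 to 3.79 CPM in DSS mice and 3.86 to 4.49 CPM in controls (-0.34, SE 0.25). It was -0.12 without mouse 7 and -0.39 without mouse 9.

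Of the 9 members, 0 were called in blood by edgeR or by DESeq2's Wald test, against 0% of all 484 miRNAs by edgeR, where DESeq2 called 7. An unadjusted p under 0.05 in edgeR was reached by 1 member, miR-27a-3p, and by 56 of all miRNAs. DSS mice were higher without overlap for 2 members, where 7.44% of all miRNAs were, and lower without overlap for 1 (miR-24-1-5p), where 9.92% were. The groups of miR-24-1-5p overlapped with total counts alone and with the deposited normalized signal. The median log2 fold change of the members was 0.28 against -0.053 for all miRNAs, and it lay 0.334 to 0.419 above the median of all miRNAs under the 4 scalings. This shift rested on mouse 1, since without it the median of the members was 0.014 and that of all miRNAs 0.027. With the grouping of the disease state labels, 0 members were called in blood and the value of miR-27a-3p was 0.16 and that of miR-23a-3p -0.020. The groups of these 2 and of miR-24-1-5p then overlapped, and 1 other member, miR-27b-3p, was higher without overlap, though not with total counts alone. The shares over all miRNAs were computed only for the main grouping with TMM scaling, so none stands beside this count. Among the blood markers, 0 of the tested miRNAs of any cell type were called. The 2 endothelial markers, of which only miR-126a-3p was tested, summed to 13.5 to 16.3 CPM in DSS mice and 31.0 to 57.3 CPM in controls. The sums of all other marker lists overlapped between the groups. The 4 myeloid markers summed to 4581 to 5660 and 3115 to 5216 CPM and went both ways. Of these, miR-223-3p (log2 fold change 1.31) and miR-142a-5p (0.22) were above 0, and miR-223-5p (-0.80) and miR-142a-3p (-0.58) below.

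**Figure D3:**
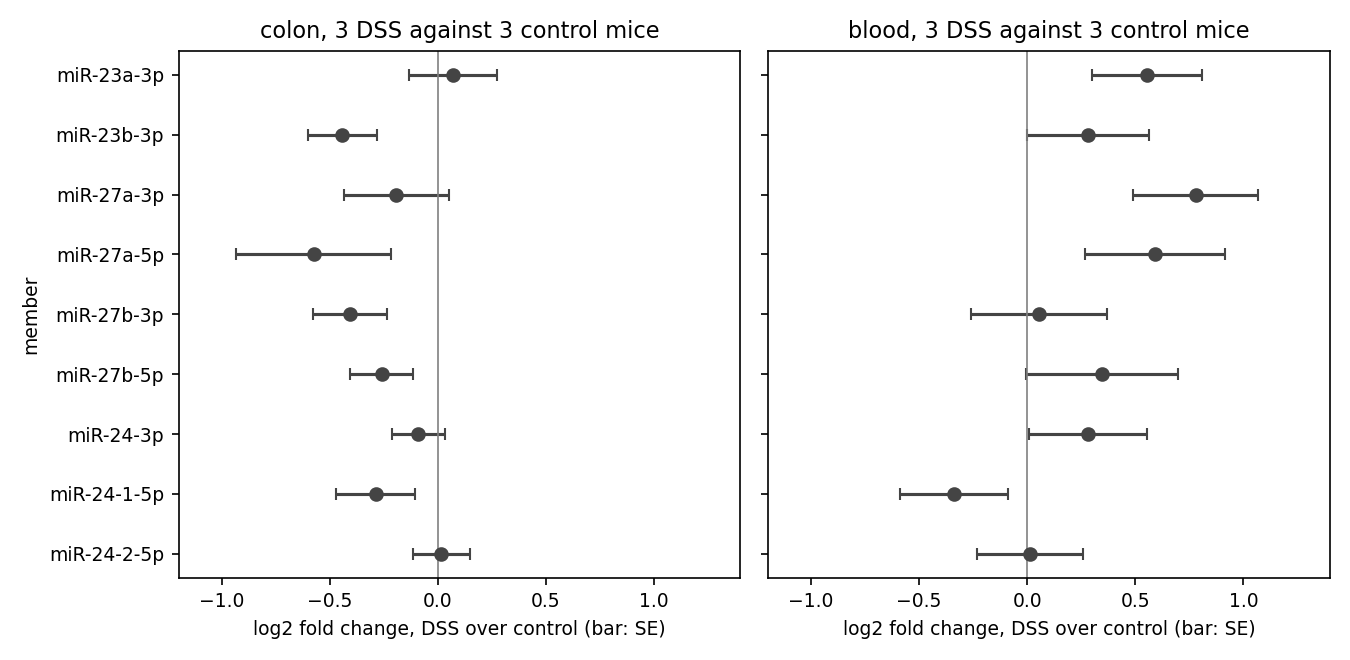
Log2 fold change of each member between 3 DSS and 3 control mice in colon (left) and blood (right), with the standard error from edgeR as bars and 0 as the vertical line. With TMM scaling, 7 of 9 points lie below 0 in colon (5 with total counts alone and 9 with upper-quartile factors) and 8 of 9 above 0 in blood (4 of 9 below 0 without mouse 1), and none passed the thresholds.

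Whether the effect of DSS differed between the tissues was tested as an interaction over all 12 libraries. This fit scales over both tissues, so its values are not the differences of the values within each tissue given above. For miR-24-1-5p those were -0.29 in colon and -0.34 in blood, and the interaction value was 0.26. The difference (blood minus colon, log2) was above 0 for 9 of 9 members with TMM scaling, against 409 of all 680 miRNAs, for 8 of 9 with total counts alone, where miR-24-1-5p was below 0, and for 7 of 9 with RLE factors, where miR-24-2-5p was too. miR-27a-5p and miR-27a-3p had the largest values, 1.52 (SE 0.57) and 1.32 (SE 0.50), and miR-23b-3p followed with 1.06 (SE 0.42). The value of miR-27a-5p was 0.90 without mouse 2 and 1.93 without mouse 4, and that of miR-27a-3p was 0.80 without mouse 1 and 1.83 without mouse 9. These 3 had an unadjusted p under 0.05, as had 94 of all miRNAs, and the adjusted p of each was 0.3. miR-24-1-5p had the smallest value, 0.26 (SE 0.41). No member was called (0 of 9, and 0% of all 680 miRNAs) by edgeR, and 0 members by DESeq2, which called 29 of all miRNAs. These values depend on the scaling, since the median of the members was 0.86 with TMM and 0.39 with RLE factors. It lay 0.569 to 0.674 above that of all miRNAs under the 4 scalings, but without mouse 1 the medians were 0.40 and 0.079, in place of 0.86 and 0.22. Since the same 9 products come from 2 transcripts, their signs are not independent. With the grouping of the labels, the 3 leading members were at -0.54, 0.25 and -0.30, and 0 were called.

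Ratios of 2 members within a library do not depend on how libraries are scaled. The ratio of miR-23a-3p to miR-23b-3p compares the chromosome 8 with the chromosome 13 cluster. In colon it was 1.12, 1.21 and 1.10 in DSS mice 1, 7 and 9 and 0.762, 0.734 and 0.912 in control mice 2, 4 and 8. Thus miR-23a-3p had more counts than miR-23b-3p in each DSS mouse and fewer in each control mouse. The mean ratio differed 1.43-fold (two-sided exact permutation test, p = 0.1, and adjusted p = 0.675 over 9 ratios). No smaller p than 0.1 can come from groups of 3 mice. With the label grouping the difference was -0.32 on the log2 scale, in place of 0.52. In blood, the ratio was 3.04, 1.79 and 2.19 in DSS mice and 1.92, 1.84 and 1.88 in controls, and the groups overlapped.

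The ratio of miR-27a-3p to miR-27b-3p separated the groups in blood instead. In blood it was 1.16, 1.33 and 1.24 in DSS mice and 0.689, 0.581 and 1.012 in controls. All 3 DSS mice were higher, 1.68-fold in the mean (exact permutation test, two-sided, p = 0.1, adjusted p = 0.45). Under the label grouping, the log2 difference was -0.61 in place of 0.75. In colon, it was 0.558, 0.510 and 0.808 in DSS mice and 0.521, 0.600 and 0.521 in controls, which overlapped. For the 5p strands, miR-27a-5p over miR-27b-5p and miR-24-2-5p over miR-24-1-5p overlapped between DSS and control mice in both tissues.

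Between the tissues, the miR-23a-3p to miR-23b-3p ratio was 1.79 to 3.04 in blood and 0.734 to 1.21 in colon, without overlap and 2.17-fold higher in blood. It was higher in blood in 6 of 6 mice (exact permutation test, two-sided, adjusted p = 0.00649 over 9 ratios). The miR-27a-3p to miR-27b-3p ratio was 0.581 to 1.33 in blood and 0.510 to 0.808 in colon, 1.66-fold higher in blood and higher in 5 of 6 mice (exact permutation test, adjusted p = 0.0351). Without mouse 1, 7 or 8, its adjusted p was 0.114. So for both 3p pairs the chromosome 8 product weighed more in blood. The 5p strands of miR-24 went the other way, since miR-24-2-5p over miR-24-1-5p was 3.57 to 6.81 in blood and 7.03 to 11.7 in colon, 1.54-fold lower in blood and lower in 6 of 6 mice (exact permutation test, adjusted p = 0.00649). miR-27a-5p over miR-27b-5p was 1.51 to 3.00 in blood and 1.62 to 4.30 in colon (exact permutation test, adjusted p = 0.864). The replicate block, here an exact sign-flip test within mice, gave an adjusted p of 0.0703 for each of the miR-23 and miR-24 ratios and 0.113 for miR-27a-3p over miR-27b-3p, and the smallest unadjusted p that 6 mice allow in it is 0.0312.

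**Figure D4:**
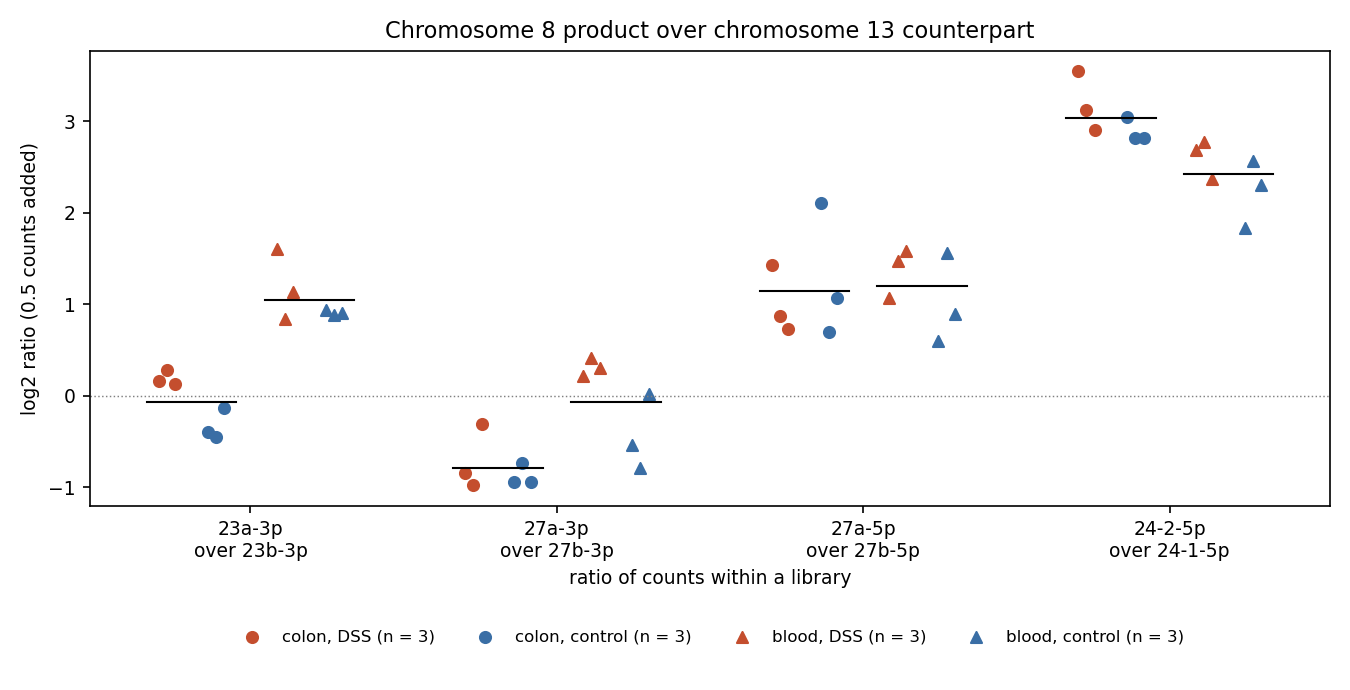
Log2 ratio of the chromosome 8 product to its chromosome 13 counterpart in each library (0.5 counts added to each count), for colon (circles) and blood (triangles), DSS (red) and control mice (blue), 3 each. Black lines are the means over the 6 libraries of a tissue. The miR-23a-3p to miR-23b-3p ratio is higher in blood, and the miR-24-2-5p to miR-24-1-5p ratio is lower in blood, without overlap.

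The strand ratios compare the 3p strand with the 5p strand of a hairpin, and for these miR-23a-5p and miR-23b-5p, the other products of the clusters, were read as well. In colon the 3p strand led in every library and every hairpin. miR-23a-3p exceeded miR-23a-5p 63.6 to 417-fold in colon, miR-23b-3p exceeded miR-23b-5p 21.3 to 50.7-fold, miR-27a-3p exceeded miR-27a-5p 21.2 to 73.2-fold and miR-27b-3p exceeded miR-27b-5p 131 to 175-fold. miR-24-3p exceeded the sum of both miR-24 5p strands 11.9 to 13.9-fold. In blood, the miR-23b ratio stood apart. miR-23b-3p exceeded miR-23b-5p only 2.72 to 5.95-fold there, 9.12-fold below the colon mean, and was lower in 6 of 6 mice (exact permutation test, two-sided, adjusted p = 0.00649 over 9 ratios).

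The miR-23a ratio was 48.0 to 119 in blood, 2.75-fold below colon and lower in 6 of 6 mice (exact permutation test, adjusted p = 0.0146). Its 5p strand had only 9 to 29 counts in a blood library, and the adjusted p was 0.0536 without mouse 7 or 8. miR-27a (32.9 to 81.5 in blood, adjusted p = 0.169 in the exact permutation test), miR-27b (113 to 179, adjusted p = 0.331) and miR-24 (12.03 to 18.8, adjusted p = 0.323) missed the threshold of 0.05. The paired sign-flip test gave an adjusted p of 0.0703 for miR-23a and miR-23b, both at its smallest unadjusted p for 6 mice (0.0312). Between DSS and control mice, the strand ratios overlapped in colon for all 5 hairpin sets. The widest log2 difference under the label grouping was that of miR-23a in colon, at -1.11. In blood the miR-24 ratio was 18.8, 14.6 and 12.97 in DSS mice 1, 7 and 9 and 12.8, 12.8 and 12.03 in controls, higher in DSS mice without overlap (1.217-fold, exact permutation p = 0.1, adjusted p = 0.45). The log2 difference was 0.28, and 0.13 without mouse 1. It was also smaller under the label grouping.

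**Figure D5:**
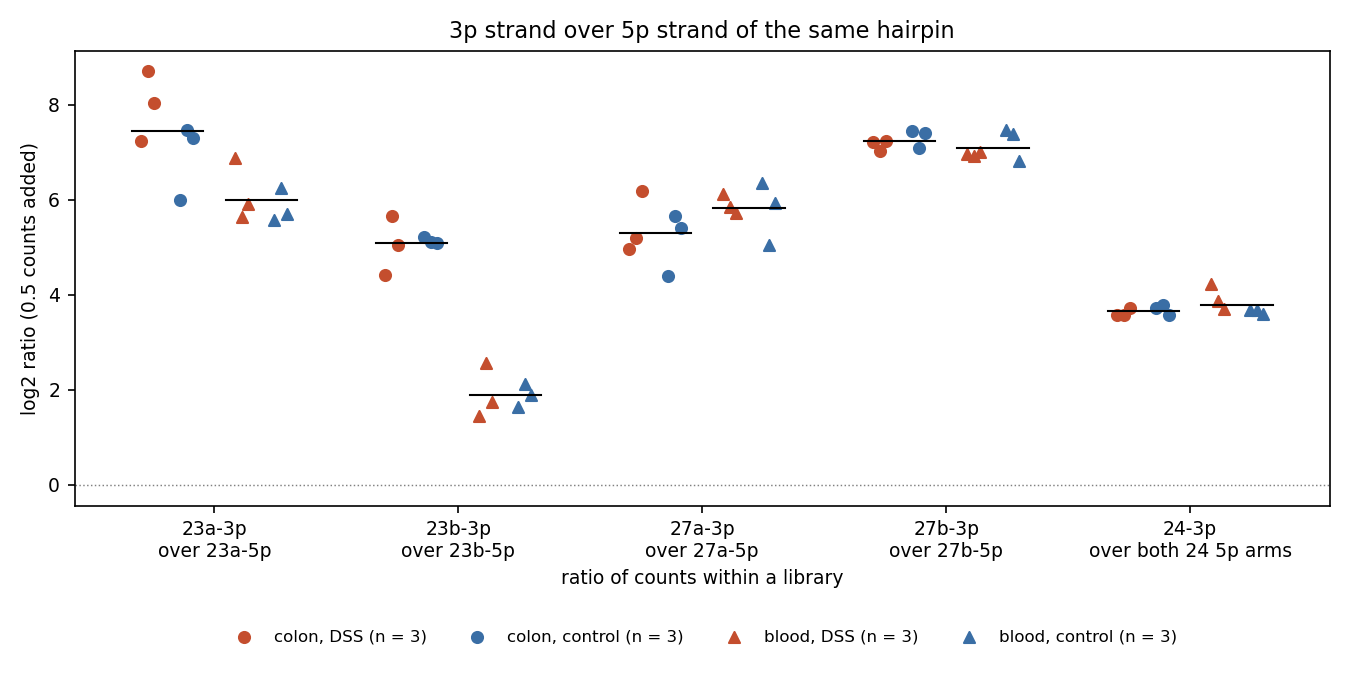
Log2 ratio of the 3p to the 5p strand in each library (0.5 counts added), for colon (circles) and blood (triangles), DSS (red) and control mice (blue), 3 each. For miR-24, the sum of both 5p strands is the denominator. Black lines are the means over the 6 libraries of a tissue. The miR-23b ratio lies at 21.3 to 50.7 in the colon libraries and at 2.72 to 5.95 in the blood libraries, the largest shift of the 5 ratios.

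The strand ratio of miR-23b can be traced to its parts. miR-23b-5p was at 9.65 to 17.9 CPM in colon and 4.52 to 11.1 CPM in blood, 2.15-fold lower in blood (log2 difference -1.10, SE 0.22, adjusted p = 0.000198 in edgeR's test), where miR-23b-3p was 19.3-fold lower. With upper-quartile factors, the miR-23b-5p value was 0.098 (adjusted p = 0.622 in edgeR's test), so its direction depends on the scaling, whereas the ratio does not. miR-23a-5p was 3.43-fold lower in blood (-1.78, SE 0.31), at 1.404 to 6.42 CPM in colon and 0.541 to 1.44 CPM in blood, but its value was -0.59 with upper-quartile factors (adjusted p = 0.0744 in edgeR's test). In DSS mice alone neither 5p strand was called, at -0.73 for miR-23a-5p (adjusted p = 0.138 in edgeR's test) and -0.51 for miR-23b-5p (adjusted p = 0.196). In colon, miR-23a-5p was at 3.23, 1.80 and 2.36 CPM in DSS mice and at 8.07, 3.08 and 4.51 CPM in controls. Its log2 fold change was -1.09 (SE 0.40, adjusted p = 0.119 in edgeR's test), and it was called by DESeq2 (adjusted p = 0.0488) and without a filter on low counts (adjusted p = 0.0434). The value fell to -0.66 without mouse 2, and no mouse left out gave a call in edgeR's test. With the label grouping, it was 0.73.

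The entries of mir-3074 lie on the strand opposite the mir-24 hairpins. miR-3074-5p is shown because it pairs with 20 bases of miR-24-3p in full complement.
mmu-mir-3074-5p: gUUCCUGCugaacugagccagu
Its tissue pattern was the reverse of that of miR-24-3p. miR-3074-5p had 25 to 45 counts in the colon libraries and 1521 to 3666 counts in the blood libraries, 70.7-fold higher in blood (log2 difference 6.14, SE 0.27, adjusted p = 1.32e-11 in edgeR's test). As a percentage of the miR-24-3p count of the same library, it was 0.0297% to 0.0614% in colon and 17.9% to 29.7% in blood. The sources used here do not state the strand setting of the counting.

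By pattern across the 12 libraries, after the mean of each tissue was taken off the log2 CPM, the miRNAs outside the clusters most like miR-23a-3p were miR-93-3p (Pearson r = 0.917) and miR-7036b-3p (0.903). For miR-23b-3p they were miR-324-3p (0.946) and miR-1981-3p (0.909), and for miR-27a-3p miR-1927 (0.917) and miR-25-5p (0.917). miR-27b-3p was most like miR-101b-3p and miR-148b-5p (0.865 each), and miR-24-3p most like miR-3097-3p (0.958) and miR-1843b-5p (0.955). Among the members, miR-24-3p and miR-27b-5p were most alike (0.934), and miR-27a-5p and miR-24-1-5p least (0.055). miR-23a-3p was closer to miR-23b-3p (0.778) than to miR-27a-3p (0.640), which comes from its own cluster. Libraries share depth and scaling, and the nearest miRNAs were taken from 680, so these values only describe the libraries. miR-7036b-3p, miR-1927 and miR-3097-3p were too low in colon for the test there and passed the filter on low counts only through blood, so the colon part of their correlations rests on few counts.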

How the data were processed

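Small RNA libraries of colon and blood from 6 mice (12 libraries) were analysed. The authors trimmed reads with Flexbar, collapsed them with fastx-toolkit, counted them on mature miRNAs of miRBase 22 with the quantifier of miRDeep2 (2.0.1.0, default options) and deposited unnormalized counts. The normalized signal that they also deposited, separately per tissue, is each count over its library's DESeq2 (1.22.2) size factor. Processing that lets near-identical miRNAs share reads can blur their difference. No molecular identifiers are named, so precision from depth covers counting error only.

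Counts were fitted in edgeR (4.0.16, R 4.3.3) with filterByExpr, TMM factors, glmQLFit and glmQLFTest, in each tissue alone and, between tissues and for the interaction, over 12 libraries without a block. Standard errors were taken from the F statistic, as |log2 fold change| over its square root. A miRNA was called at an adjusted p (Benjamini-Hochberg, all miRNAs tested) up to 0.05 with a fold change above 1.5 (for the interaction, the adjusted p alone). Ratios within a library had 0.5 counts added to each count and were compared with exact permutation tests, adjusted over 9 ratios (Python 3.11.15, scipy 1.17.1). Alternatives were RLE and upper-quartile factors, total counts alone, no filter, at least 10 counts in every library, DESeq2 (1.42.0, Wald test), limma (3.58.1) on log2(deposited normalized signal + 1), each mature sequence counted once, 1 fit of 12 libraries, each mouse left out, the label grouping, 1 count added in ratios, and mouse as a block. The block pairs tissues because each mouse gave both. The correlation of a mouse's deviations in colon and blood was -0.267 to 0.072 over 680 miRNAs. On simulated counts, edgeR recovered 95.3% of 193 changed miRNAs in colon (528 tested) and 96.8% of 189 in blood (470 tested). It recovered 99.5% of 192 between tissues (638 tested) and 43.9% of 196 for the interaction (668 tested). Recovery meant an adjusted p up to 0.05 in the right direction, without the fold threshold. The planted changes were larger than any fitted DSS effect or interaction value of a member. These rates therefore do not cover changes of the members' size.

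The members and the lists of markers were chosen with earlier results of these data known. The miRNAs named are the 9 members, the other cluster products, mir-3074 entries, seed relatives, miR-128-3p, the markers and, for 5 of the 3p strands, the 2 miRNAs outside the clusters with the highest Pearson correlation.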

Additional observations from a re-analysis of the deposited data

Results flagged for a closer look

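In groups of 6 libraries of a tissue, 36 sets of values (9 members and 9 ratios in each tissue) were checked for a library far from the others with Dixon's test, and 3 were past its 95% critical value, where chance gives about 1 in 20. In colon, the miR-27a-3p to miR-27b-3p ratio of DSS mouse 9 stood above the others, at -0.31 on the log2 scale, with a gap that was 0.647 of the range. In blood, miR-27b-5p of DSS mouse 1 stood above the others, at 1.71 as log2(CPM + 1), with a gap of 0.718 of the range. In the same tissue, miR-24-1-5p of DSS mouse 7 stood below the others, at 1.81 as log2(CPM + 1), with a gap of 0.639. Both blood values rest on few reads, with 90 counts of miR-27b-5p in mouse 1 and 78 counts of miR-24-1-5p in mouse 7.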

How the results depend on the processing

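The number of members called (0 in colon, 0 in blood, 9 between tissues and 0 for the interaction) was the same under each alternative run, each mouse left out included. Counts over all miRNAs moved. In colon, where 55 were called, 77 were called by DESeq2 and 76 without a filter. Fewer were called with RLE factors (16), upper-quartile factors (8), 1 fit of 12 libraries (0), the label grouping (0) and each mouse left out (0 to 44, with 0 without mouse 2, 4, 7 or 8). In blood, where 0 were called, 25 were called without a filter, 7 by DESeq2, 1 with 1 fit of 12 libraries and 0 to 1 with a mouse left out. Between tissues 603 were called, and 244 with at least 10 counts in every library, which tests fewer miRNAs. For the interaction, where 0 were called, 8 were called with RLE factors, 27 without a filter, 3 with at least 10 counts, 29 by DESeq2, 1 with the replicate block and 0 to 2 with a mouse left out. Of the 9 ratios, 5 differed between tissues, 3 to 5 with a mouse left out (3 without mouse 7 or 8) and 0 in the sign-flip test (replicate block), and the block changed no other member call. In the sign-flip test, 6 mice allow no unadjusted p below 0.0312, so ratios with all 6 mice one way stood at an adjusted p of 0.0703. Its 0 therefore does not show that pairing removes a difference. Where the values below differ, the cause was not tested.

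Of values that were called, the sign of 1 turned, that of miR-23b-5p between tissues, which was 0.098 with upper-quartile factors. The other signs that turned belong to values that were not called. In colon these log2 fold changes were, for miR-23a-3p, -0.054 (upper-quartile), -0.0070 (limma), -0.43 (label grouping) and -0.099 to 0.21 (a mouse left out). For miR-27a-3p they were 0.067 (total counts) and -0.46 to 0.022 (a mouse left out), and for miR-24-3p 0.13 (total counts) and 0.084 (label grouping). miR-24-2-5p gave -0.046 (RLE), -0.11 (upper-quartile), -0.029 (10 counts), -0.046 (DESeq2), -0.025 (12 libraries), -0.055 (limma) and -0.087 to 0.068 (a mouse left out). The label grouping gave 0.65 for miR-27a-5p, 0.077 for miR-27b-3p, 0.074 for miR-27b-5p and 0.73 for miR-23a-5p. In blood it gave -0.020 for miR-23a-3p, -0.25 for miR-23b-3p and 0.19 for miR-24-1-5p. Leaving out a mouse gave -0.29 to 0.34 for miR-27b-3p, -0.035 to 0.63 for miR-27b-5p and -0.077 to 0.18 for miR-24-2-5p, which was -0.0092 with at least 10 counts. For the interaction, the label grouping gave -0.30 for miR-23b-3p and -0.54 for miR-27a-5p. There miR-24-1-5p was -0.13 (RLE), -0.058 (total counts), -0.14 (DESeq2) and -0.062 to 0.45 (a mouse left out), and miR-24-2-5p -0.11 (RLE) and -0.10 (DESeq2). Between tissues, the miR-27a-5p to miR-27b-5p log2 ratio difference was -0.11 to 0.36 (a mouse left out).

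Limits are the 3 mice per group, the label grouping that contradicts the one used, the isolation kit that goes with the tissue, and near-identical sequences. The study's methods name globin removal for blood RNA and do not state whether the small RNA libraries had it. miR-27b-5p and miR-24-1-5p rest on at most 146 counts in a blood library, and miR-23a-5p on 9 to 29.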

Other observations

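miR-128-3p carries a shifted form of the miR-27 seed, since its own seed CACAGUG is found at bases 3 to 9 of both miR-27 3p strands.
mmu-mir-128-3p: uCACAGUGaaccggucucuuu
Its tissue pattern was opposite to that of the miR-27 strands, with 617 to 811 CPM in colon and 4022 to 8215 CPM in blood, 8.56-fold higher in blood (log2 difference 3.10, SE 0.21, adjusted p = 1.18e-09 in edgeR's quasi-likelihood test). Between DSS and control mice its log2 fold change was 0.19 (SE 0.15) in colon and 0.10 (SE 0.23) in blood, and it was not called in either. The other product opposite mir-24-1, miR-3074-1-3p, had 45 to 111 counts in a blood library and 1 to 3 in a colon library. It passed the filter on low counts only through blood, so no fold change is given. miR-3074-2-3p was at or below 0.144 CPM in every library, and no fold change was computed for it.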
